A study of Mus musculus with 8 samples.

Results

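The comparison described here sets cultured epicardial cells labelled as a knockout of both PDGF receptors against control epicardial cells. It rests on 2 of the 8 arrays of the series, chosen by their titles: 1 array of the receptor knockout culture and 1 of the control culture. The knockout culture came from E12.5 mouse embryos of mixed C57 background with an epicardial tissue specific knockout of Pdgfra and Pdgfrb, and its label gives no treatment. The control culture came from wildtype E12.5 embryos of the same background, and its label gives vehicle as the treatment. In both, cells grew out of the explanted heart for 3 days, the heart was taken away, and the cells were kept for 2 further days. Each array held RNA pooled from at least 3 cultures, so a side has 1 pool and no replicate, and no p-value is given for any difference. The sources used here give neither the Cre line nor the deleted exons. The source field of both cultures names the heart without its conotruncal region, and they were taken as cultures from their titles. The other arrays were those of control and knockout hearts and of wildtype cultures from E12.5 embryos of mixed C57 background. These cultures were given vehicle for 2 days, 20 ng/ml PDGF-BB for 12 h or 24 h, or 3 growth factors together for 2 days. The 3 factors were PDGF-BB at 20 ng/ml, TGF-β1 at 10 ng/ml and bFGF at 25 ng/ml. The vehicle culture and the 2 PDGF-BB cultures serve below to show how far wildtype pools lay from each other. For the PDGF-BB cultures that distance holds treatment as well as pool. The culture given 3 factors is used below for counts of markers.

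The epicardium is the sheet of mesothelial cells that covers the heart. Some of its cells lose their epithelial contacts, enter the heart wall as mesenchyme and become fibroblasts, smooth muscle cells and pericytes, a step called epithelial to mesenchymal transition (EMT). The receptor tyrosine kinases PDGFRα and PDGFRβ bind dimeric PDGF ligands, signal through PI3 kinase, Ras and SRC family kinases, and are known to be needed for the formation of cardiac fibroblasts and vascular smooth muscle cells from epicardium.

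Levels are background-corrected, quantile-normalized log2 bead intensities, and differences are knockout minus control on that log2 scale. Measured genes are those with a detection p under 0.01 on either array. It was called where the difference was at least 1 in size (2-fold) and the brighter array detected it, and "rose" and "fell" are used for called genes alone. Where the dimmer array detected no probe of a gene, the fold is a lower bound against the lowest detected level of that array. Between 14557 and 16661 of 45281 probes were detected per array in the series, 16661 on the control culture and 16162 on the knockout culture. The authors had normalized the control, knockout and PDGF-BB cultures as one set of 4 arrays and the vehicle culture in another. Markers of the label's cell type were detected. Of 20 epicardial and mesothelial markers with a probe, 17 were detected in the knockout culture and 16 in the control culture. Each heart array detected 12, and neither the knockout nor the control culture detected Tbx18. Wt1, an epicardial gene on the list, was not among the markers detected on any array. The fibroblast and mesenchyme list had 18 of 20 markers detected in each of these cultures and 14 in each heart array. These counts do not tell epicardial from mesenchymal cells. The macrophage list, whose cells the labels do not mention, had 29 of 32 markers detected in the knockout culture and 30 in the control culture.

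The call was made for 407 of 9762 measured genes (4.17%), of which 184 were higher (1.88%) and 223 lower (2.28%) in the knockout culture. Counts within gene lists are to be read against these shares. Quantile normalization gives all arrays the same distribution, and the median difference of 0.0067 follows from it. With undetected genes at their bound, a 4-fold difference was reached by 13 higher and 22 lower genes, and an 8-fold difference by 1 and 5. Of the called genes, 157 higher and 147 lower ones were detected on both arrays. The other 27 higher genes were detected in the knockout culture alone, and the other 76 lower genes in the control culture alone. With the authors' own processed values in place of these, 244 genes were called. Among the called genes named below, Aqp5, Atf3, Col8a2, Col11a1, Crabp1, Csta2, Des, Dkk3, Etv4, Fgf18, Foxc1, Gabrb1, Hopx, Hoxb4, Igfbp6, Jak1, Krt23, Lamb1, Mmp13, Nkd2, Nsdhl, Piezo2, Robo1, Tgfb2, Tgfbr3, Wnt4 and Wnt5b then differed by less than 1, each in the same direction. Calls were also lost for Col16a1, Des and Etv4 with median centring and for Igfbp6 with only these 2 arrays normalized together. Of the 108 called genes that the text names, 80 stayed called with an offset of 50, Kdm5d not among them. Without background correction 81 did. Called genes made up 5.78% of the 2441 dimmest genes and 2.13% of the 2441 brightest.

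The distance between wildtype pools sets the scale for these counts. The vehicle culture differed from the control culture at 1031 of 9757 measured genes (10.6%), more than the knockout culture did, although control and vehicle cultures are both wildtype and were given no growth factor. Set against that vehicle culture instead, the knockout culture differed at 1426 of 9669 genes (14.7%). The vehicle and control arrays lie in different processing sets, so pool and set cannot be told apart there. Within the set of the control culture, the PDGF-BB cultures differed from it at 54 of 9686 genes (0.558%) after 12 h and at 119 of 9698 genes (1.23%) after 24 h. In these, PDGF-BB treatment and pool cannot be told apart. The standard deviation of the differences over genes was 0.47 for the knockout culture, 0.66 for the vehicle culture, 0.29 for PDGF-BB at 12 h and 0.35 at 24 h. The knockout culture lay at least 1 outside the control and both PDGF-BB cultures for 126 genes above (1.29%) and 138 below (1.41%). For 104 genes above (1.07%) and 91 below (0.932%) it lay at least 1 outside all 4 wildtype cultures (control, vehicle and both PDGF-BB). Of 102 called genes named below that have a value against the vehicle culture, 8 had the other sign there and 22 kept the sign but lost the call. Those that lost it were Actc1, Adamts12, Aqp5, Ccng2, Col16a1, Col8a2, Cox6a2, Ddit3, Dkk3, F11r, Fbln1, Fgf16, Gabrb1, Itga11, Jak1, Krt7, Myl3, Nsdhl, Oas1g, Sall3, Srebf2 and Wnt5b. Whether another knockout pool would show the same genes was not tested.

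**Figure D1:**
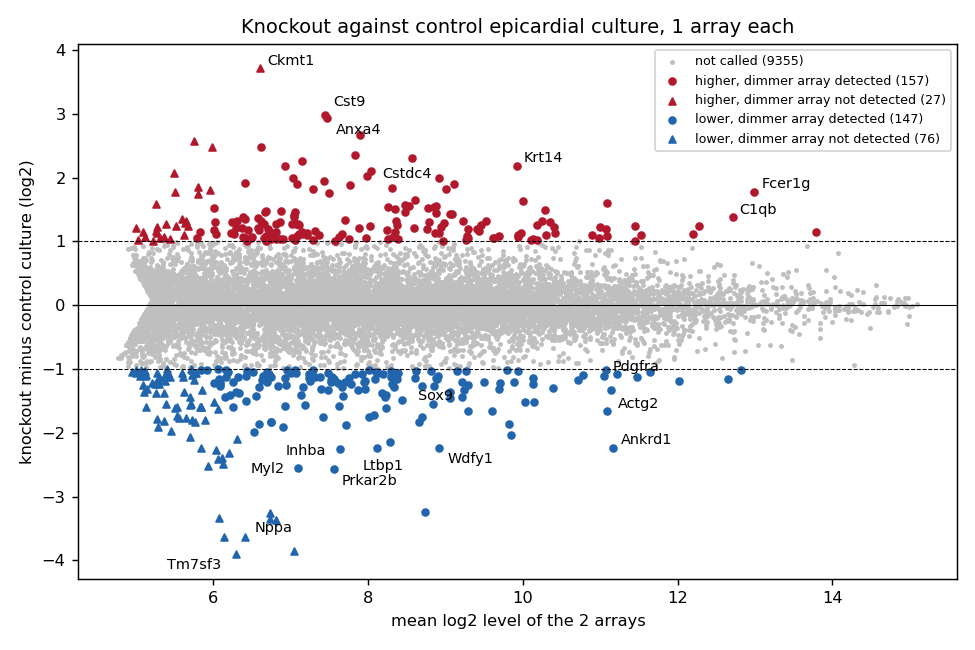
Knockout minus control culture (log2, y axis) against the mean log2 level of both arrays (x axis) for 9762 measured genes, with 1 array per culture. Red and blue mark the 184 higher and 223 lower called genes, triangles those not detected on the dimmer array, and the dashed lines a difference of 1 in size. Undetected genes crowd the dim left side, while Fcer1g and C1qb lie among bright genes.

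**Figure D2:**
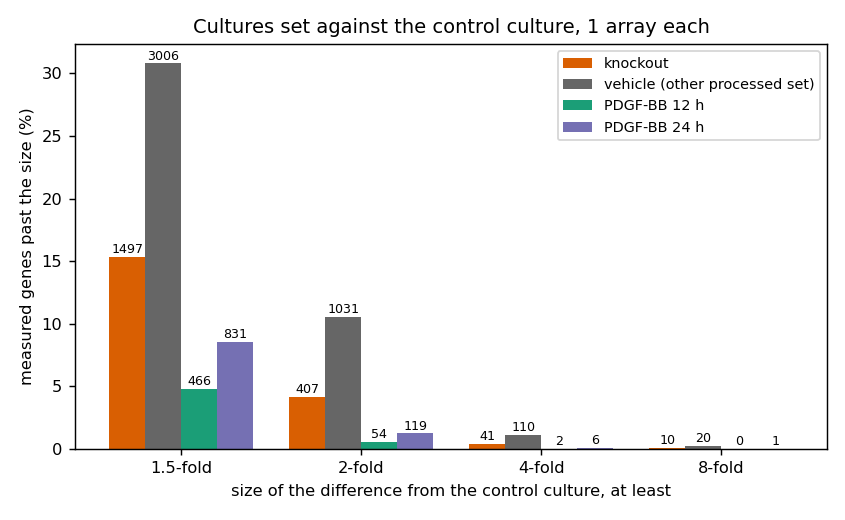
Percent of measured genes (y axis) that differed from the control culture by at least 1.5, 2, 4 or 8-fold (x axis) in the knockout, vehicle and PDGF-BB cultures, with the number of genes above each bar, undetected values at their measured level and 1 array per culture. At 2-fold, the knockout culture with 407 genes lies between PDGF-BB at 24 h with 119 and the vehicle culture with 1031.

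The targets of the knockout were still detected in the knockout culture. Pdgfra had a level of 11.61 in the control culture and 10.49 in the knockout culture, a fall of 1.12. The vehicle pool had 10.21, and the PDGF-BB pools 11.08 after 12 h and 10.95 after 24 h, an order kept below, so the knockout culture lay inside the range of the wildtype cultures. Pdgfrb was dim, at 6.12 in the control and 5.85 in the knockout culture, a difference of -0.27. In the heart arrays Pdgfra was 7.43 in the control and 5.8 in the knockout. Pdgfrb was 5.62 in the control heart and not detected in the knockout heart. Since the position of the probes relative to the deleted exons is unknown, the levels are a partial check of the labels.

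The ligands were measured too. Pdgfa, which binds PDGFRα, had levels of 11.47 in the control and 10.85 in the knockout culture, Pdgfb, which binds both receptors, 7.66 and 8.05, and Pdgfc 9.0 and 8.76, none of them called. Of 21 measured genes that relay the receptor signal or feed back on it, 0 rose and 1 fell, and the median was -0.05. The gene that fell was Jak1, a kinase of cytokine receptors, by 1.10 from 7.2 to 6.1. The MAP kinase phosphatase Dusp4 had a difference of -0.52 and the PI3 kinase regulatory subunit Pik3r2 one of 0.64.

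The TGF-β and activin genes held some of the largest decreases among genes detected on both arrays. Of 21 measured, 3 fell and 1 rose, with a median of -0.30. Inhba encodes the subunit of activin A, a secreted ligand. Its level was 8.76 in the control, 6.5 in the knockout, 10.62 in the vehicle pool and 9.56 and 9.8 in the PDGF-BB pools, so the knockout pool was the lowest and lay more than 2 below the nearest wildtype culture. Ltbp1, which tethers latent TGF-β to the matrix, was 9.24 in the control, 7.0 in the knockout, 8.5 in the vehicle and 9.1 and 9.15 in the PDGF-BB cultures. It too was lowest in the knockout pool, with a difference of -2.24. Tgfb2, a ligand known for driving EMT in heart cushions, went from 7.23 to 5.94 against 7.43, 7.16 and 7.12 in the other wildtype cultures. The member that rose was Tgfbr3, a co-receptor that presents TGF-β2, from 5.97 to 7.02, a difference of 1.06. The activin antagonist Fst had a difference of -0.55 and the matrix protein Tgfbi one of -0.59, neither called. Among BMP pathway genes 1 of 10 fell, Bmper, a secreted BMP-binding protein, from 8.13 to 6.92, and the list's median of -0.29 compares with 0.0067 over all measured genes and turned to 0.22 against the vehicle culture. The BMP antagonist Nog was 5.31 in the control culture and not detected in the knockout culture, without a call.

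Secreted FGF ligands went in both directions. Of 14 measured FGF genes 2 rose and 2 fell, with a median of -0.45 (0.22 against the vehicle culture). Fgf10, a mesenchymal ligand of FGFR2b, was 6.44 in the control culture and not detected in the knockout culture, at least 2.27-fold lower. The vehicle culture did not detect it either. Fgf16, a ligand of the embryonic heart, was 6.35 in the control, 7.74 in the knockout, 6.77 in the vehicle pool and 5.61 and 5.37 in the PDGF-BB pools. It was highest in the knockout pool, with a difference of 1.39, while both PDGF-BB pools were lowest. Fgf18 was detected in the knockout culture alone of both, at least 1.73-fold higher. The ETS factor Etv4, a target of FGF signalling, fell by 1.01 from 8.52 to 7.51, and Fgf2 (-0.84), Fgf1 (-0.72) and the FGF receptor partner Flrt3 (-0.996) were not called.

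Of 23 measured Wnt genes 4 fell and 1 rose, where 2.28% and 1.88% of all measured genes did, with a median of -0.37 (0.12 against the vehicle culture). Sfrp1, a secreted Wnt-binding protein, was 9.56 in the control, 7.74 in the knockout, 9.3 in the vehicle pool and 9.33 and 8.87 in the PDGF-BB pools, so that the knockout pool was the lowest of the 5. Its other detected probe gave -0.54 in place of -1.83, so the size is uncertain. Dkk3, a member of the Dickkopf family, was 6.51 in the control culture and not detected in the knockout culture, at least 2.39-fold lower. Wnt5b, a ligand of β-catenin-independent signalling, and Nkd2, a cytoplasmic inhibitor, fell by 1.22 and 1.07. The ligand gene that rose was Wnt4, known for its part in epithelial development of the kidney, from 5.25 to 6.4, with 5.61 and 5.38 in the PDGF-BB pools and no detection in the vehicle pool. The Wnt inhibitor Dkk1 (-0.93), the receptor Fzd8 (-0.79) and the agonist Rspo1 (0.72) stayed under the rule of size.

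In the IGF list 2 of 14 fell and 1 rose, with a median of -0.24. Igf2, the fetal growth factor that epicardium is known to secrete, was among the brightest genes, at 13.23 in the control and 12.07 in the knockout culture, a difference of -1.16. The other wildtype pools had 14.16, 13.49 and 13.53, all above the knockout pool. The binding protein Igfbp5 went from 8.93 to 7.7 but was 6.81 in the vehicle culture, so the pools overlap. Igfbp6, which prefers IGF2, rose from 9.67 to 10.69. Igf1 (0.89), the clearance receptor Igf2r (-0.64) and the protease Pappa (-0.78) were not called.

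**Figure D3:**
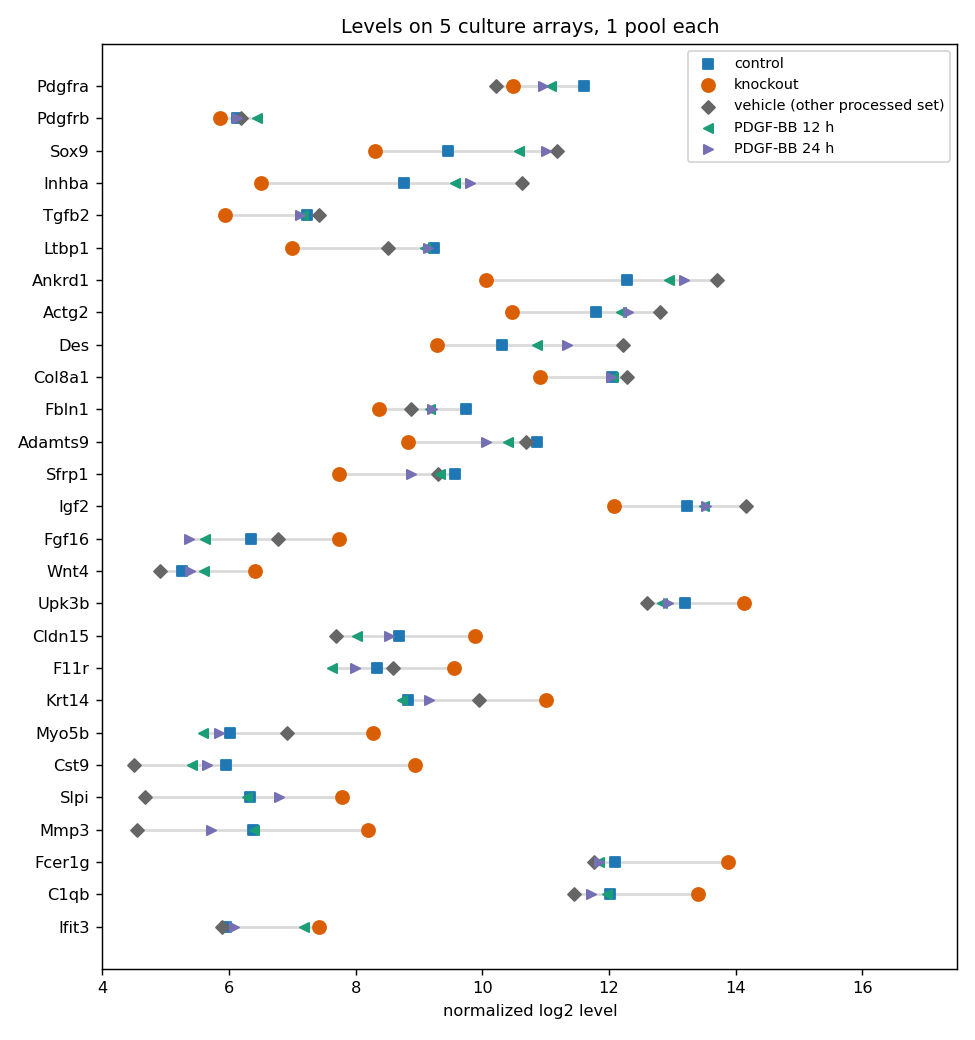
Normalized log2 level (x axis) of 27 genes of the text (y axis) on 5 culture arrays, 1 pool each: control, knockout, vehicle and PDGF-BB at 12 h and 24 h. The knockout pool is the lowest for Inhba, Ltbp1, Ankrd1 and Sfrp1 and the highest for Cst9, Krt14, Fcer1g and C1qb, and lies inside the wildtype range for Pdgfra. Cst9 was named in part for lying outside the control and vehicle pools. Vehicle points of Wnt4, Cst9, Slpi and Mmp3 were not detected.

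Structural matrix genes did not move as 1 block. Of 18 measured collagen genes 5 fell and 0 rose, with a median of -0.27 and a highest difference of 0.92 for the fibrillar Col5a2. Those that fell included both chains of the short-chain collagen VIII, Col8a1 (12.04 in the control, 10.92 in the knockout) and Col8a2 (8.81 and 7.78), and the fibril-associated Col16a1 (12.17 and 11.13). The vehicle culture had 7.86 for Col8a2 and 11.20 for Col16a1, close to the knockout culture. Col11a1, a fibril-nucleating chain, was 6.0 in the control culture and not detected in the knockout culture, at least 1.68-fold lower. Col3a1, the fibrillar collagen III, had a difference of -1.14 from 9.18 for the probe that stands for it but up to 0.39 for another, so its direction is uncertain. Col18a1 (-0.83) and Col7a1 (-0.79) were below 0 without a call.

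Among elastic fibre and crosslinking genes 2 of 13 fell and 1 rose. The fibulin Fbln1 was 9.74 in the control and 8.38 in the knockout culture, and 8.88, 9.18 and 9.2 in the vehicle and PDGF-BB cultures. The microfibril-associated Mfap4 went from 8.54 to 7.34, and the elastin interface gene Emilin2 rose from 8.85 to 10.01. Fbln1, Mfap4, Col3a1 and Pdgfra were the 4 of 18 measured fibroblast and mesenchyme markers that fell. In that list 0 rose, 9 lay above 0 and 9 below, and the median was 0.016. Elastin itself (Eln) had a difference of 0.6. In the basement membrane list 1 of 14 fell, the laminin β1 chain Lamb1, which was detected in the control culture alone of both (5.91, at least 1.57-fold lower), while perlecan (Hspg2) had a difference of -0.68. In the proteoglycan and hyaluronan list, 1 of 19 rose, the cell-surface syndecan Sdc4, from 8.73 to 9.82, with 10.57 in the vehicle culture. The hyaluronan synthase Has2, which cushion EMT is known to need, had a difference of -0.94, Lum one of 0.82 and Fmod one of 0.91.

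Matrix-cutting enzymes moved in both directions. Of 20 measured, 3 fell and 2 rose. The falls were in Adamts9, a versican-cutting protease, Adamts12 and the urokinase Plau. Adamts9 was 10.87 in the control, 8.83 in the knockout, 10.69 in the vehicle pool and 10.41 and 10.06 in the PDGF-BB pools, lowest in the knockout pool, and its other probe gave -1.22 in place of -2.04. Plau went from 9.92 to 8.66 and Adamts12 from 10.74 to 9.51. The rises were in 2 matrix metalloproteinases, stromelysin 1 (Mmp3) and collagenase 3 (Mmp13). Mmp3 was 6.39 in the control and 8.2 in the knockout culture, 6.4 and 5.71 with PDGF-BB and not detected in the vehicle culture, while Mmp13 went from 6.23 to 7.26. Mmp9 (0.8), Adam8 (0.73) and the inhibitor Timp1 (-0.72) were not called. Of 14 measured integrin chains 1 fell, Itga11, a collagen receptor chain of fibroblasts, from 7.85 to 5.94 with 6.21 in the vehicle culture, while Itga1 and Itgb1 had -0.62 and -0.59 and the laminin receptor chain Itga6 had 0.73.

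Contractile genes lay below 0 with small single differences. In the actin and myosin list 24 of 25 measured genes lay below 0, with a median of -0.40 against 0.0067 over all genes, and 2 fell while 0 rose. The γ smooth muscle actin Actg2 was 11.80 in the control and 10.47 in the knockout culture, 12.81 in the vehicle pool and 12.19 and 12.31 in the PDGF-BB pools, lowest in the knockout pool. Pdlim5, a LIM protein of stress fibres, fell from 8.87 to 7.5. Myl9, Tpm2 and Tagln, genes of the smooth muscle apparatus, had differences of -0.86, -0.8 and -0.75, none called. For the smooth muscle α-actin Acta2 the probe that stands for it gave -0.29, at a level of 15.11 near the top of the scale, while its 3 other detected probes gave -1.4 to -1.15, so its size and its call are uncertain. Of 12 smooth muscle and pericyte genes 3 fell, Actg2, the desmin gene Des (10.30 in the control, 9.29 in the knockout, 12.22 in the vehicle culture) and the pericyte adhesion molecule Mcam (10.32 and 9.1), with a median of -0.71. The same list had a median of 0.47 in the vehicle culture against the control culture and of 0.23 and 0.40 in the PDGF-BB cultures. In bulk arrays fewer cells of a type and less RNA per cell cannot be told apart.

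In the list of YAP and serum response factor (SRF) targets, 17 of 20 measured genes lay below 0, with a median of -0.40 and 1 call. That call was Ankrd1, a YAP target and a stress gene of heart muscle, with 12.29 in the control and 10.05 in the knockout culture. The other wildtype pools had 13.71, 12.95 and 13.19, and a further probe gave -2.41, so the knockout pool was the lowest of the 5. Connective tissue growth factor (Ccn2) had a difference of -0.93 at a control level of 14.74, near the top of the scale, and one of -1.43 with its other probe, which would pass the rule of size. The LIM protein Csrp1 had 0.92. The 250 bases before the start of Ankrd1 are shown because they hold 2 matches to CATTCC, the core letters of the TEAD motif, the DNA partner of YAP, and those before the start of the cardiac actin gene Actc1 because they hold a CArG box, the SRF motif by its name. Promoters come from RefSeq (build GRCm38.p6), read 5′ to 3′ on the strand of the gene, with the matches in capitals, those of Ankrd1 on the other strand. Both strands of the 300 bases from 250 before to 50 after each start were searched.
Ankrd1 (chr19:36119845-36120094, minus strand): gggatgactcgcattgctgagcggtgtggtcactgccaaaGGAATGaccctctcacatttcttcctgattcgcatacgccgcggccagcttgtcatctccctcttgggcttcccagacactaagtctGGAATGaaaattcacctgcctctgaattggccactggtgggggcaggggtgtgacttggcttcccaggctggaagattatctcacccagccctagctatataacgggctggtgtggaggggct
Actc1 (chr2:114052876-114053125, minus strand): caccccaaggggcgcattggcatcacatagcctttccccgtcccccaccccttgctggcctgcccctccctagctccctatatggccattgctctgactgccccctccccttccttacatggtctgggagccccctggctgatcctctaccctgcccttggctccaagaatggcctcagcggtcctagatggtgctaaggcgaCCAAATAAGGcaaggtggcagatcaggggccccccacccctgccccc
A match to CATTCC lay in 10 of 18 promoters of measured YAP and SRF targets, in 10 of 22 of the actin and myosin list and in 16.6% of the windows of all 27025 genes. A CArG box lay in 5 of 18 and 4 of 22 of these lists and in 1.81% of all windows. These lists were drawn up from known targets, so the shares describe how they were chosen, and a match is no evidence that a factor binds there.

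EMT and mesenchymal transcription factors had 3 falls and 0 rises among 21 measured. Tbx20, a T-box factor of heart muscle and cushions, was 6.62 in the control culture and not detected in the knockout culture, at least 2.58-fold lower. Sox9, a factor of cartilage and cushion mesenchyme, was 9.45 in the control and 8.3 in the knockout culture. It was 10.57 and 11 with PDGF-BB and 11.18 in the vehicle culture, so that the knockout pool was lowest of the 5. The forkhead factor Foxc1 went from 6.67 to 5.66. Snai1, Snai2 and Twist1, the classical EMT repressors, had differences of -0.24, -0.38 and -0.09; the intermediate filament gene Vim and fibronectin Fn1 had -0.18 and -0.11, none of them called. Among HOX genes, Hoxb4 rose from 5.96 to 7.03, while Hoxd3 and Hoxd4 had 0.42 and 0.57.

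Epicardial and mesothelial genes lay mostly above 0, while cadherin and tight junction genes were more mixed. In the epicardial and mesothelial list 15 of 17 measured genes were above 0 and 2 rose. The median of 0.36 compares with -0.60 for the vehicle culture and -0.25 and -0.23 for the PDGF-BB cultures, each against the control culture. Upk3b, a uroplakin of mesothelium, was 13.20 in the control and 14.13 in the knockout culture, against 12.60, 12.84 and 12.93, so the knockout pool was highest though not called. In the cadherin and tight junction list 10 of 16 measured genes were above 0 and 6 below, with a median of 0.14, and 2 rose. Cldn15, a tight junction claudin, rose from 8.69 to 9.89, and F11r, the junctional adhesion molecule A, from 8.33 to 9.55. The desmosomal cadherin Dsg2 had a difference of 0.73 and Cdh13, a cadherin without a cytoplasmic tail, one of -0.89. Tcf21 and Aldh1a2, epicardial genes for a fibroblast factor and for retinoic acid synthesis, had -0.41 and -0.29.

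Of 9 measured keratins 3 rose and 1 fell, with a median of 0.51 (-0.69 against the vehicle culture). Krt14, known from basal layers of stratified epithelia, was 8.83 in the control, 11.01 in the knockout, 9.95 in the vehicle pool and 8.72 and 9.16 in the PDGF-BB pools, more than 1 higher in the knockout pool than in each. Krt7, a keratin of simple epithelia, rose from 9.85 to 10.98, the same level as the 10.97 of the vehicle culture. Krt19 was not detected in the control culture, was 6.73 in the knockout culture and reached 7.43 in the vehicle culture, at least 2.95-fold higher than the control but inside the wildtype range. Krt8 and Krt18, the pair of simple epithelia, had differences of 0.8 and 0.19. Krt23 was 5.94 in the control culture and not detected in the knockout culture, at least 1.61-fold lower.

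Further genes of polarised epithelia were among the rises. In the apical transport and microvilli list 2 of 7 measured genes rose and 0 fell. In that list 5 lay above 0 and 2 below, with a median of 0.55 (0.27 against the vehicle culture), and Espn was lowest at -0.57. Myo5b, the motor of apical recycling vesicles, was 6.02 in the control, 8.27 in the knockout, 6.91 in the vehicle pool and 5.59 and 5.84 in the PDGF-BB pools. The water channel Aqp5 was not detected in the control culture and was 6.27 in the knockout culture, at least 2.15-fold higher. The vehicle culture had 6.03 and PDGF-BB for 24 h 5.4, so other wildtype pools detected it. The bicarbonate cotransporter Slc4a4, outside the list, rose from 7.92 to 9.91. Pkhd1l1, a relative of the polycystic kidney protein fibrocystin, went from 7.41 to 9.72, with 7.85 in the vehicle culture. In the cilia list that gene was the 1 of 8 measured that rose, and Rsph1 had -0.98.

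Protease inhibitors were among the largest rises. In the cystatin and serpin list 4 of 13 measured genes rose and 0 fell. Cst9, a secreted cystatin, was 5.95 in the control, 8.93 in the knockout and 5.42 and 5.66 in the PDGF-BB cultures, and it was not detected in the vehicle culture. Its difference of 2.98 was the largest rise among named genes detected on both arrays. Cstdc4 and Csta2, members of the stefin A cluster, rose from 6.98 to 9.09 and from 5.98 to 7.27. Stefin A genes are near-identical copies and the probe sequences were not used here, so which member carries the signal is uncertain. Slpi, an inhibitor of neutrophil elastase, was 6.33 in the control, 7.79 in the knockout and 6.28 and 6.79 in the PDGF-BB cultures, and it too was not detected in the vehicle culture. Wfdc17, a related whey acidic protein domain gene, went from 6.97 to 9.0, while the serpin Serpina3n had a difference of -0.68.

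Among annexins and S100 proteins 2 of 20 rose. The neutrophil protein S100a8 went from 5.38 to 7.86. Anxa4, an annexin of secretory epithelia, went from 5.99 to 8.94 (2.94) for the probe that stands for it, whereas a further probe gave 0.28, so its size is uncertain. Anxa8 and S100a16 had differences of 0.52 and 0.68.

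**Figure D4:**
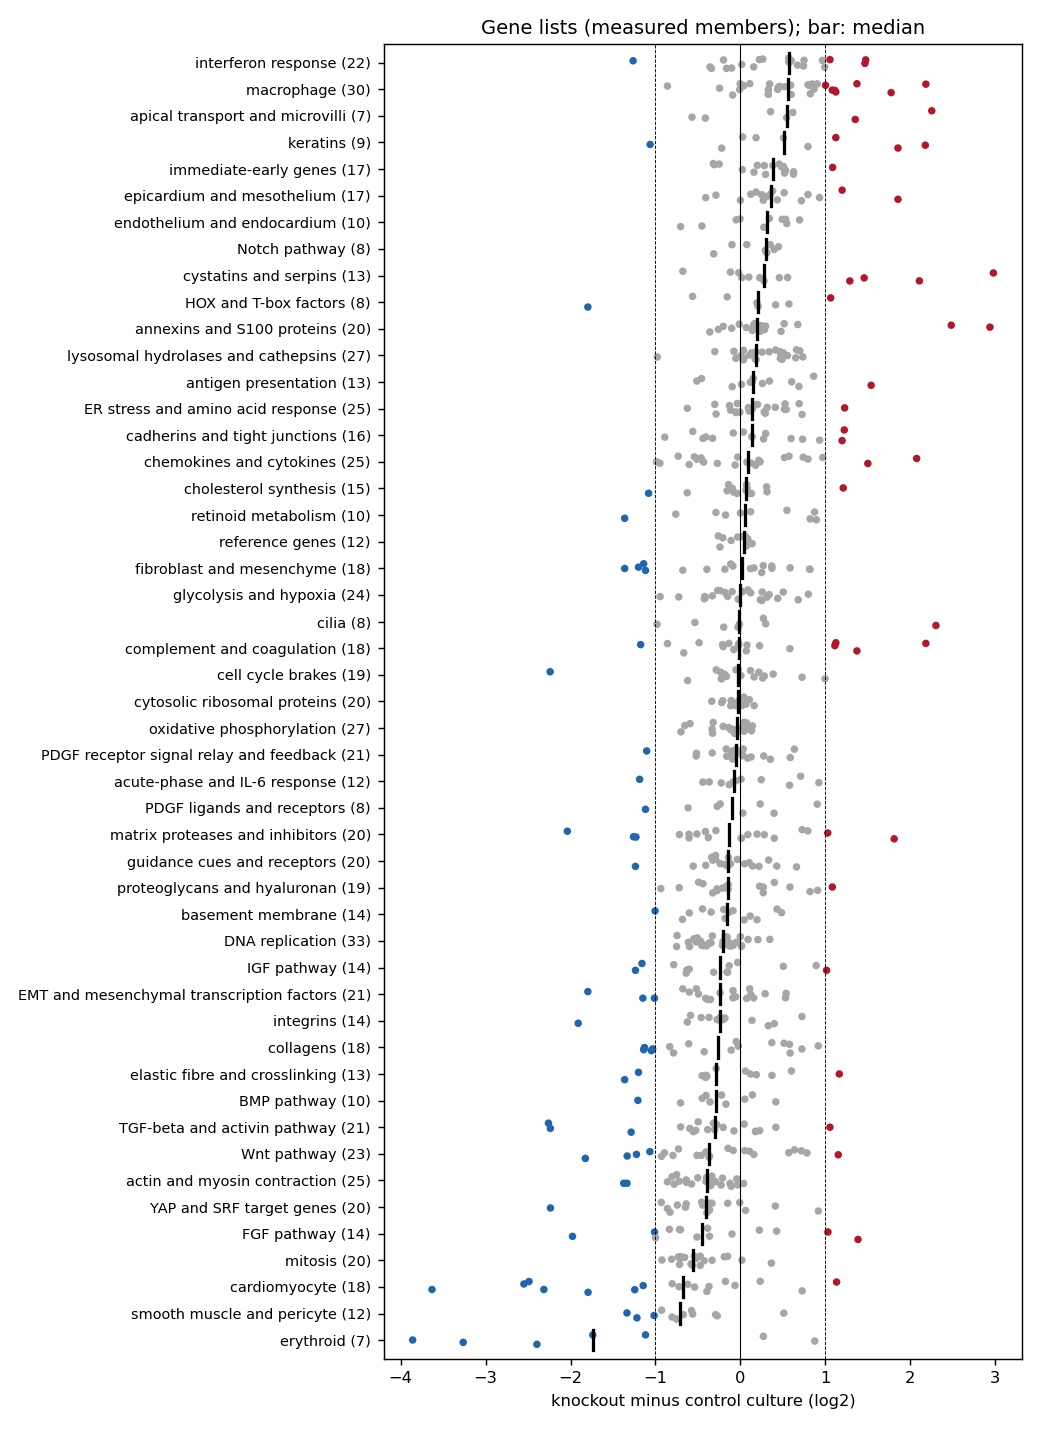
Knockout minus control culture (log2, x axis) for the measured members of 49 gene lists with at least 7 measured members (y axis, number in brackets), 1 array per culture. Each point is a gene, red and blue are genes called higher and lower, and the black bar is the list's median. The interferon response and macrophage medians are 0.57 and 0.56, or 0.44 and 0.56 with undetected genes at their bound, and the erythroid list has the lowest, -1.74 (-1.15).

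Macrophage genes lay mostly above 0. Among the knockout culture's markers of this cell type, 7 of 30 measured markers rose, 0 fell and 25 lay above 0, with a median of 0.56. The summed intensity of the 32 markers with a probe was 159356 in the knockout and 113964 in the control culture. It was 104016 and 95488 in the PDGF-BB cultures at 12 h and 24 h and 49347 in the vehicle culture, so wildtype pools alone spanned more than the step from control to knockout. Fcer1g, the signalling chain of Fc receptors, was 12.10 in the control, 13.87 in the knockout, 11.77 in the vehicle pool and 11.83 and 11.84 in the PDGF-BB pools. The knockout pool was highest by 1.78. F13a1, a coagulation factor subunit of tissue macrophages, went from 5.84 to 8.02 and the complement gene C1qb from 12.02 to 13.40. Csf1r and Cx3cr1, receptors that define the lineage, had differences of 0.91 and 0.87, and the inhibitory Fc receptor Fcgr2b had -0.86. Of 27 measured lysosomal genes none was called and 22 lay above 0, with 0.74 for Ctsh and 0.7 for Ctsc. The part that macrophage RNA has in the immune genes that follow was not tested.

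In the complement and coagulation list 4 of 18 rose and 1 fell. The rises were F13a1 and the 3 chains of C1q, all of them also in the macrophage list, with 1.13 for C1qa and 1.11 for C1qc. The fall was the complement inhibitor Cd59a, from 11.30 to 10.12, with 9.87 in the vehicle culture. The lectin pathway protease Masp1, outside the list, fell from 8.65 to 6.78, and the thrombin receptor F2r had -0.86. Among chemokines and cytokines 2 of 25 rose, the B cell attractant Cxcl13, not detected in the control culture and 6.54 in the knockout culture (at least 2.58-fold higher), and Cxcl14, from 7.6 to 9.1. The monocyte attractants Ccl2 and Ccl7 had -0.99 and -0.95 and Ccl6 had 0.97. Saa3, an acute-phase protein, went from 12.61 to 11.42 but was 6.26 in the vehicle culture. Of 13 antigen presentation genes 1 rose, the non-classical MHC class I gene H2-T23, from 8.08 to 9.62, and the immunoproteasome subunit Psmb8 had 0.86.

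Interferon response genes had a median of 0.57, or 0.44 with undetected genes at their bound, below the 0.56 of the macrophage list, with 3 of 22 rising and 1 falling. Ifit3, an antiviral protein induced by type I interferon, was 5.95 in the control, 7.41 in the knockout, 5.89 in the vehicle pool and 7.19 and 6.08 in the PDGF-BB pools. The pool given PDGF-BB for 12 h was thus nearly as high as the knockout pool. Oas1g, a sensor of double-stranded RNA with near-identical Oas1 copies that make the assignment uncertain, went from 6.13 to 7.61, and the scavenger receptor ligand Lgals3bp rose by 1.06 from 9.08. Gbp2, a guanylate-binding protein, moved the other way, from 9.49 in the control to 8.23 in the knockout culture, with 7.26 in the vehicle culture. Rsad2 and Ifi35, further interferon-induced genes, had 0.99 and 0.97 and were not called. Promoters of 2 genes that rose and of the 1 that fell are shown because all hold a match to GAAANNGAAA, letters of the element bound by interferon regulatory and STAT complexes, on either strand. The matches, in capitals, overlap in Oas1g, and build, source and direction are as above.
Ifit3 (chr19:34583279-34583528, plus strand): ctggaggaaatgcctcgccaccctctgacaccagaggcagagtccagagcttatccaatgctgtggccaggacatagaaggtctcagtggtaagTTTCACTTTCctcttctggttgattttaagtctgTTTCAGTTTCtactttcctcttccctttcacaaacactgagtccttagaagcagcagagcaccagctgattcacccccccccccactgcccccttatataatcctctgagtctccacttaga
Oas1g (chr5:120887614-120887863, minus strand): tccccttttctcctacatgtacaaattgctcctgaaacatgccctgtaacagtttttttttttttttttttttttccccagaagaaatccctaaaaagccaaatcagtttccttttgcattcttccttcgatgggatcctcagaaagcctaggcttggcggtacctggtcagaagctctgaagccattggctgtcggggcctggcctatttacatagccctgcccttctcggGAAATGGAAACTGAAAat
Gbp2 (chr3:142620413-142620662, plus strand): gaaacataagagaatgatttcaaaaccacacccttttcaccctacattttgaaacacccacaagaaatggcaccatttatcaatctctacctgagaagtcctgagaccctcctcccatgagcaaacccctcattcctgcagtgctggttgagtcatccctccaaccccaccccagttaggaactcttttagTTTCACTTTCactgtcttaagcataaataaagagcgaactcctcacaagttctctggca
The same letters lay in 12 of 18 promoters of measured interferon genes and in 3.99% of the windows of all 27025 genes. The promoters shown were picked for holding a match, and only 1 is of a gene that fell. They cannot show whether the letters separate the directions. The list was drawn up from known interferon genes, so the share describes how it was chosen, and a match is no evidence that a factor binds there.

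Cell cycle genes were lower by small amounts. None of 20 measured mitosis genes was called, and 18 lay below 0 with a median of -0.55. Aurka, the spindle pole kinase, was 9.57 in the control and 8.65 in the knockout culture and Cenpa, the centromeric histone, 12.36 and 11.55, though another probe of Cenpa gave 0.02. For DNA replication the counts were 27 of 33 below 0 with a median of -0.21, led by the origin factor Mcm10 (-0.75) and the clamp loader Rfc4 (-0.75, but 0.06 with its other probe). Among brakes of the cycle 1 of 19 fell, Ccng2, an atypical cyclin of arrested cells, detected at 6.96 in the control culture and not in the knockout culture (at least 3.25-fold lower). The growth arrest ligand Gas6 had a difference of 0.999, just under the rule of size. Macrophage, epicardial and mesenchymal cells share these genes, and the part of each cell type in their levels was not tested.

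Basic metabolism was close to equal on both arrays. No member was called among 20 ribosomal protein genes (median -0.03), 27 oxidative phosphorylation genes (-0.04), 24 glycolysis and hypoxia genes (0.0021) and 12 reference genes (0.04). In cholesterol synthesis the master regulator Srebf2 rose from 7.99 to 9.2, whereas the sterol enzyme gene Nsdhl fell from 8.37 to 7.29 and the other 13 of 15 were not called. The stress transcription factors Ddit3 and Atf3 rose, from 9.79 to 11.02 and from 6.54 to 7.62, as the 1 call among 25 stress genes and the 1 call among 17 immediate-early genes. In retinoid metabolism the binding protein Crabp1 was detected in the control culture alone of both, at least 1.44-fold lower, while Crabp2, its relative, had 0.9. Of 20 guidance genes 1 fell, the Slit receptor Robo1, from 6.71 to 5.47, and none of 8 Notch genes was called.

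Heart muscle genes, which epicardial cells are not known for, were among the largest decreases. The control culture detected 18 and the knockout culture 11 of 28 cardiomyocyte markers with a probe. The other wildtype cultures detected 14 (vehicle), 19 and 16 (PDGF-BB at 12 h and 24 h) and 14 (3 growth factors), and both hearts all 28. Of 18 measured markers 7 fell and 1 rose, with a median of -0.67, or -0.43 with undetected genes at their bound. The atrial hormone Nppa was 8.23 in the control culture and not detected in the knockout culture, at least 7.84-fold lower. It was 5.92 in the vehicle pool and 11.19 and 6.0 in the PDGF-BB pools, so wildtype pools lay far apart. Myl2, a ventricular myosin light chain, was 8.37 and 5.82, and Actc1 and Myl3, cardiac actin and a ventricular light chain, were at least 4.32-fold and 4.3-fold lower. In the vehicle and PDGF-BB pools Myl2 was 7.21, 6.52 and 7.62, Actc1 5.67, 8.45 and 6.51, and Myl3 5.85, 5.87 and 6.23. Cox6a2, the muscle form of a cytochrome oxidase subunit, rose from 8.3 to 9.43. The fetal myosin Myh8, outside the list, was at least 8.91-fold lower for the probe that stands for it, with -1.23 and -1.14 for its 2 other detected probes, and the vehicle culture did not detect it. The part of heart muscle cells carried over from the explant in these differences, and in those of Ankrd1, Des and Tbx20, was not tested.

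Globin genes fell too. The control culture detected 7 and the knockout culture 2 of 15 erythroid markers with a probe, against 7 in each of the vehicle and PDGF-BB cultures. The wildtype culture given 3 growth factors detected 1, and neither Hba-a1 nor Hbb-y, so a low count was not particular to the knockout culture. Of 7 measured 5 fell, all globins, among them Hba-a1 at 8.97 and the embryonic Hbb-y at 8.36 in the control culture, at least 13.2-fold and 8.62-fold lower in the knockout culture. Globin genes have near-identical copies, so single members are uncertain. The list's median was -1.74, -1.15 with undetected genes at their bound, and 0.57 over the 2 genes detected on both arrays, neither a globin: Alas2, of haem synthesis (0.88), and Blvrb, of haem breakdown (0.27). The part of red cells in any other difference was not tested.

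Sex-linked genes also differed between the pools. The Y-linked Eif2s3y was 7.95 in the control culture and not detected in the knockout culture, at least 6.48-fold lower, and Kdm5d, also on the Y, at least 1.59-fold lower. Xist, the RNA that coats the inactive X chromosome, was 7.69 in the control, 9.26 in the knockout, 7.1 in the vehicle pool and 8.67 after 12 h of PDGF-BB, and not detected after 24 h. The sexes pooled in each culture are not labelled, and the part of sex in other differences was not tested. Of 316 measured genes on the X chromosome 10 rose and 8 fell (5.70%), and of 3 on the Y chromosome 2 fell (66.7%). Over the autosomes, called shares ran from 2.70% of measured genes on chromosome 10 to 6.40% on chromosome 13, against 4.17% over all genes.

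**Figure D5:**
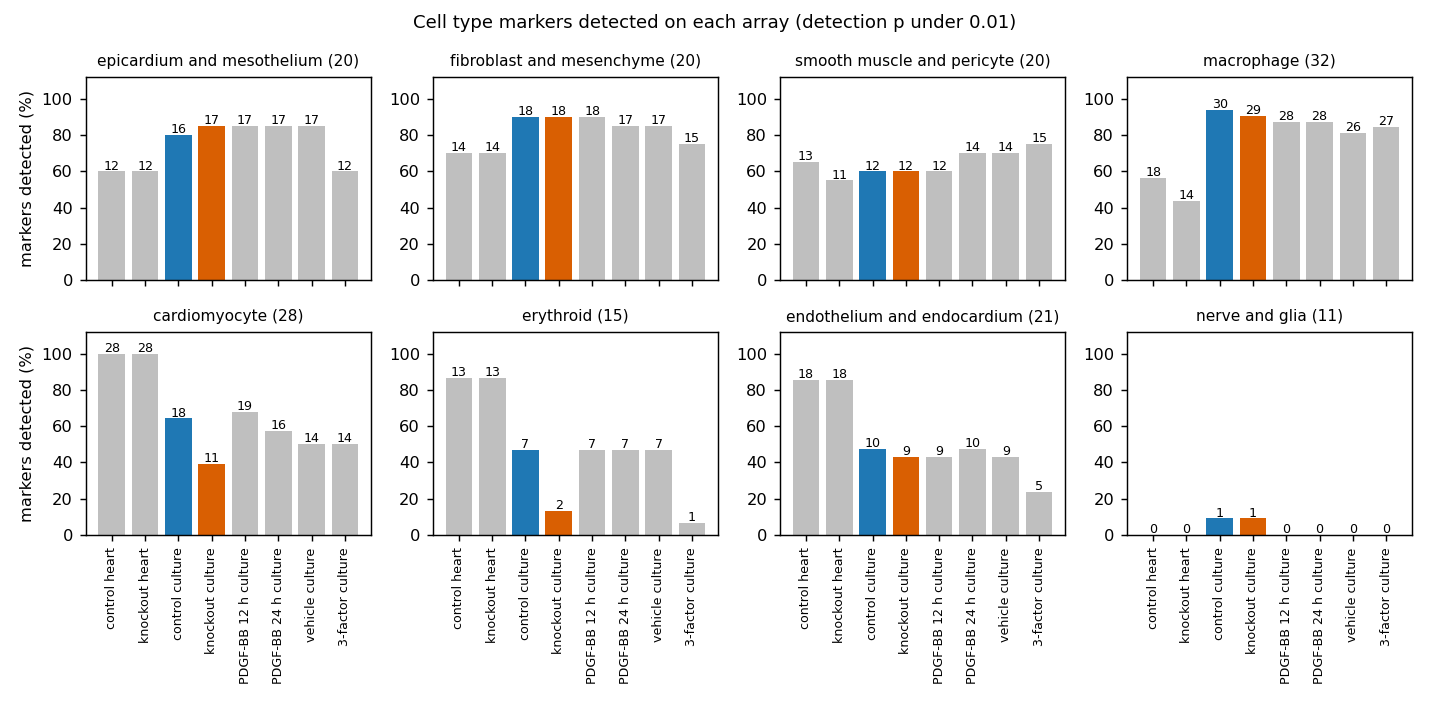
Percent of cell type markers with a probe that were detected (y axis) on each of the 8 arrays (x axis), with the number detected above each bar and the number with a probe in each title. Blue and orange are the control and knockout cultures. Among the lists shown, they differ most for cardiomyocyte (18 and 11 of 28) and erythroid markers (7 and 2 of 15).

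Several of the largest differences belong to no list. Ckmt1, a mitochondrial creatine kinase of epithelia and brain, was not detected in the control culture and was 8.46 in the knockout culture, at least 9.78-fold higher and the largest rise by its bound. B4galnt2, a glycosyltransferase of gut epithelium, rose from 6.56 to 9.23 and the ATP-gated channel P2rx3, known from sensory neurons, from 6.03 to 8.03. The retinal lipid transporter Abca4 and the spalt-like factor Sall3 were not detected in the control culture, and were at least 4.14-fold and 3.65-fold higher. Among decreases, the transmembrane gene Tm7sf3 was 8.25 in the control culture and not detected in the knockout culture, at least 7.94-fold lower, and Plac8, a small cysteine-rich protein, at least 9.45-fold lower. Prkar2b, a regulatory subunit of protein kinase A, was 8.85 in the control, 6.28 in the knockout, 9.02 in the vehicle pool and 9.23 and 9.07 in the PDGF-BB pools. It was lowest in the knockout pool by more than 2, but lying outside the control and vehicle pools was part of the rule that named it. Cd200, an immune checkpoint ligand, went from 10.35 to 7.11 (-3.24) for the probe that stands for it, but its 2 other detected probes gave -1.19 and -0.36. The vehicle culture had 6.48, below the knockout pool. Wdfy1 fell by 2.25 from 10.03 for the probe that stands for it and had -0.37 for another, so its size is uncertain. The endothelial phosphatase Ptprb fell from 9.36 to 7.21, while none of 10 measured endothelial markers was called.

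Genes next to the deleted loci were counted apart. Among the 50 measured genes on each side of Pdgfra on chromosome 5, 7 of 100 were called (7.0%), 2 higher, which include Slc4a4 and Cxcl13, and 5 lower, which include Hopx, Gabrb1 and Ccng2. Among the 20 on each side, 3 of 40 were called (7.5%). Around Pdgfrb on chromosome 18 the counts were 3 of 100 (3.0%), with Piezo2 and Myo5b among them, and 1 of 40 (2.5%), against 4.17% over all measured genes. The order of genes was taken from RefSeq. A further probe was detected for 120 called genes, and all further probes had the sign of the call in 114 and lay at least 0.5 in that direction in 91. Further probes lay over 0.5 from the probe that stands for the gene in 27 of 64 named genes that have further detected probes: Abca4, Acta2, Adamts9, Anxa4, Ccl7, Cd200, Cenpa, Cldn15, Col3a1, Col5a2, Cxcl14, Dusp4, Fbln1, Fn1, Gabrb1, Igf2r, Myh8, Nsdhl, Oas1g, Piezo2, Pik3r2, Pkhd1l1, Rfc4, Sfrp1, Srebf2, Wdfy1 and Wnt4. Of named genes without a call, Acta2, Ccl7, Ccn2, Ctsc and Lum had a further probe at least 1 in size. With the mean over a gene's detected probes, Cldn15, Col3a1, Col8a2, Gabrb1, Igfbp5, Nsdhl, Piezo2, Sox9, Srebf2 and Wnt4 were no longer called.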

How the data were processed

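RNA from pooled E12.5 epicardial cultures and hearts was measured on 8 Illumina mouse bead arrays, 1 array per pool. The authors deposited a non-normalized intensity and a detection p-value per probe, exported with BeadStudio 3.3 per the submitters' processing notes. The deposited intensity had a lowest value above 0 on each array, and still held the background. Processed intensity values of the authors had equal distributions within 2 sets of 4 arrays, which shows quantile normalization by set, and the sources used here name no program for that step. Precision is limited by the number of arrays.

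From the non-normalized values, log2 levels were computed with limma 3.58.1 in R 4.3.3 (neqc, background from the detection p-values, offset 16, quantile normalization over 8 arrays). Of 45281 probes, 34885 carried 1 gene symbol, 18 several and 10378 none, and the probe with the highest mean over 8 arrays stood for each of 19057 genes. Of the genes, 18992 were found in the RefSeq table by their identifier, and 65 kept the platform's symbol. Of 2268 measured probes without 1 symbol, 97 differed by at least 1. Calls needed detection p under 0.01 and a difference of at least 1. Summaries used Python 3.11.15, numpy 2.4.6, pandas 2.3.3 and matplotlib 3.10.9, and the steps were tested on simulated data. The 52 lists (10 of cell types, 42 of pathways) and the members were chosen with earlier results of these data known. Named genes are the PDGF genes, a panel of epicardial and EMT genes, the called genes nearest to the deleted loci, and the largest differences over all genes, per list and outside both untreated cultures, with predicted and clone genes left out. Alternatives were the background correction, the offset, the arrays normalized together, median centring, the authors' processed values, the detection filter, the probe rule, the size rule and the vehicle culture as control.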

Additional observations from a re-analysis of the deposited data

Results flagged for a closer look

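Of the genes named in the text, those called in opposite directions in culture and in whole hearts were marked for a closer look. Each of the 4 sides had 1 array, and the difference between culture and hearts was not tested. Eif2s3y, on the Y chromosome, had a measured difference of -3.63 in culture, where the knockout culture did not detect it, and of 1.05 in hearts, where the control heart did not. Xist, on the X chromosome, had 1.56 in culture, where both arrays detected it, and a measured -4.66 in hearts, where the knockout heart did not. Differences that involve an undetected level give a direction and no exact size. Prkar2b, a regulatory subunit of protein kinase A, had -2.57 in culture and 1.14 in hearts.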

How the results depend on the processing

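The count of 407 called genes, 184 higher and 223 lower, became 219 (102 and 117) without background correction, 215 (104 and 111) with an offset of 50 and 244 (111 and 133) with the authors' processed values. It became 1426 (865 and 561) with the vehicle culture as control, of which 240 were also called, in the same direction, against the control culture. A 1.5-fold rule gave 1497 (738 and 759), a 4-fold rule 41 (15 and 26, or 35 with undetected genes at their bound), and 147 lower genes were detected on both arrays. Under the other normalizations, detection filters and probe rule the total stayed between 304 and 485. The 108 called genes that the text names kept their direction wherever they had a value, except with the vehicle culture as control, where 72 of 102 stayed called in their direction, 22 lost the call and 8 reversed: Cd200 (0.63), Cd59a (0.25), Gbp2 (0.97), Igfbp5 (0.88), Krt19 (-0.70), Pdgfra (0.27), Saa3 (5.16) and Sdc4 (-0.75). The number of lists with a median of at least 0.25 in size, 21, became 8 without a detection filter. The endothelial median then became -0.0036, and the erythroid one became 0.57 over genes detected on both arrays. With the vehicle culture as control, the BMP (0.22), FGF (0.22), Wnt (0.12), keratin (-0.69) and immediate-early (-0.13) medians reversed, and 20 of the 100 genes around Pdgfra were called where 7 were, beside 14.7% in place of 4.17% over all genes. The cause of these changes was not tested. No paired analysis was possible because each group has 1 array. Without replicates no difference can be set against the spread of knockout pools, and dim genes carry more of the calls.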
